A study of Homo sapiens and Mus musculus with 24 samples.

Results

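The loci of 3 erythroid transcription regulators, Gfi1b, Zfpm1 and Nfe2, were followed through the chromatin immunoprecipitation (ChIP-seq) peak lists of mouse fetal liver. Members were all peaks overlapping one of 3 windows given in mm10 coordinates: chr2:28595000-28645000 for Gfi1b with its nearby enhancers, chr8:122270000-122340000 for Zfpm1 and chr15:103245000-103265000 for Nfe2. They numbered 743 of the 564660 peaks in 12 lists, with 207 at Gfi1b, 428 at Zfpm1 and 108 at Nfe2. The libraries came from fetal livers of embryos at day 14.5. Wild-type (WT) livers gave 2 libraries each of HA, H3K27ac and BRG1 precipitates, and hemogen knockout (KO) livers gave 2 libraries of BRG1 precipitates. Each library had a peak list, and each of the 4 groups had a group list besides. The HA antibody reads out tagged hemogen. The origin of the tag is not stated, and the labels call those livers WT. Strain, the KO allele and whether the libraries of a group came from separate embryos are not given there, so spreads between libraries may be technical.

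Gfi1b is a zinc-finger repressor of the erythroid and megakaryocytic lineages that recruits the LSD1 and CoREST histone demethylase complex through its SNAG domain. Zfpm1, also called FOG-1, is a cofactor that binds a zinc finger of GATA1 and brings in the NuRD complex. Nfe2 encodes p45, the blood-restricted subunit of the NF-E2 factor, which pairs with small Maf proteins, binds the β-globin control region and is needed for platelet formation. Hemogen is itself a nuclear protein found in haematopoietic cells. BRG1 drives nucleosome remodelling as the motor of BAF complexes, and acetylation of histone H3 at lysine 27 (H3K27ac) marks active promoters and enhancers. The series set out to map hemogen, BRG1 and H3K27ac at erythroid genes. No mouse genome or annotation was used here, so sites are given by position and not as promoter, exon or intron, no sequence is printed, and the tissue label was not checked against its marker genes.

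Depth differed between the BRG1 libraries. Depth was estimated as the lowest local background shared by at least 15 peaks of a list, divided by the width of its shortest peak. The backgrounds were read back from fold and p-value. With WT library 1 at 1.00, the depth of the precipitate was 1.04 in WT library 2, and 0.406 and 0.342 in the KO libraries. The depth at which peaks were called, after scaling by the caller, was 0.861 in WT library 2. In the KO libraries it was 0.259 and 0.262. The full WT lists held 26330 and 21167 peaks and the KO lists 3209 and 5602. Every KO count below stands beside this gap. Fold is the authors' enrichment of the summit over its local background. A region is a merged interval with at least 1 peak of each of the 2 libraries, and its strength is the mean percentile of its −log10 p in the 2 lists. A single fold given for a region is that of the strongest peak overlapping it, by p-value in the library. The summit of that peak can lie outside the region. In a wide region this peak can lie at different sites in the 2 libraries.

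At Gfi1b, the BRG1 regions shared by both WT libraries fell in 3 stretches of the 50 kb window, each of which also carried hemogen and H3K27ac. Further BRG1 peaks, 5 in library 1 and 2 in library 2, were called in a single library, most of them between the first and second stretch. Hemogen gave 20 and 16 peaks in libraries 1 and 2, WT BRG1 gave 15 and 16, and H3K27ac gave 30 and 23. Hemogen regions overlapped all 9 WT BRG1 regions, beside 96.6% of the 13213 WT BRG1 regions in the data. H3K27ac regions overlapped 7 of them, beside 63.9% overall. Regions 1 to 3 lay between 28596982 and 28603182, regions 4 to 8 between 28616425 and 28622147, and region 9 stood alone at 28641295-28642026. The map of the Gfi1b window shows these 3 stretches.

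**Figure D1:**
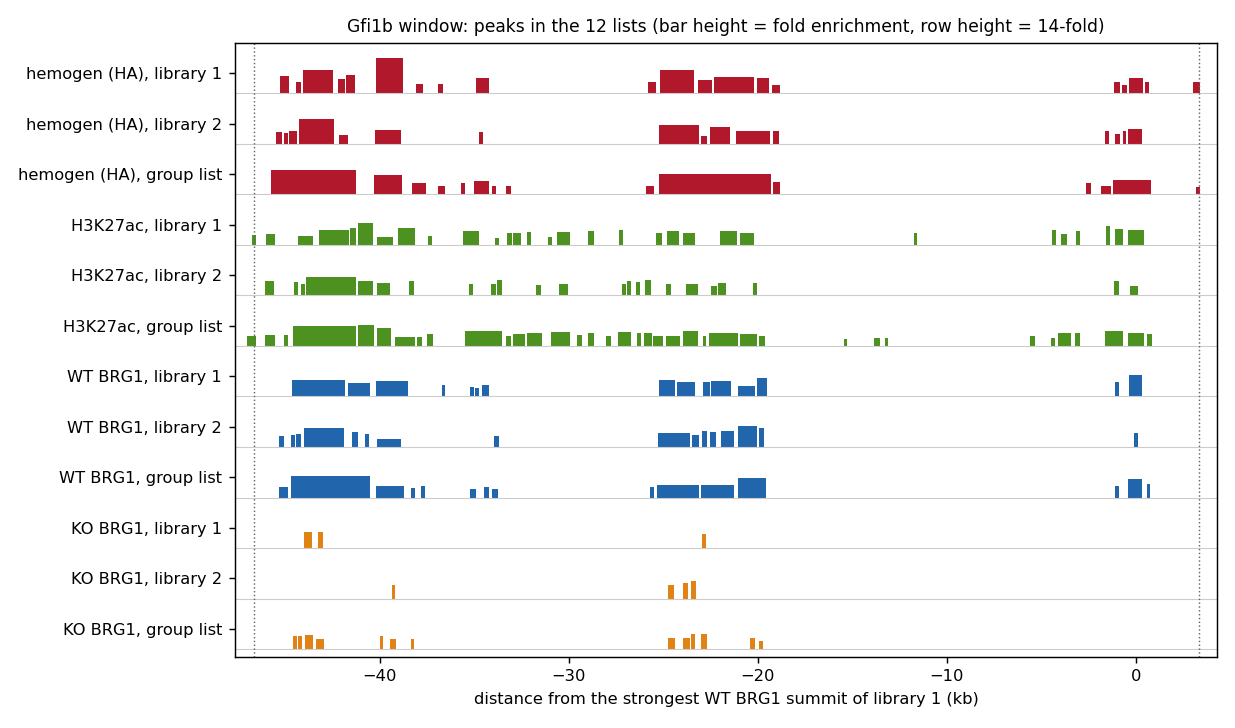
Peaks of the 12 lists across the Gfi1b window, 1 row per list, against distance in kb from the strongest WT BRG1 summit of library 1; bar height is the authors' fold and dotted lines mark the window's edges. The WT BRG1 libraries (15 and 16 peaks) share 3 stretches with hemogen, and the KO BRG1 libraries have 3 and 4 peaks, none of them in the stretch at the right.

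Within the first stretch, region 1 had hemogen folds of 7.03 and 7.45, alike in both libraries. BRG1 reached 4.97 and 5.59 there. In region 3 (28601479-28603182) hemogen reached a fold of 10.7 in library 1 but 4.06 in library 2, so that single high value was not matched by the second library. BRG1 stood at 4.71 and 2.51 in region 3. Region 2 (28599983-28601160), with BRG1 folds of 3.92 and 4.39, coincided with the highest H3K27ac folds of the window, 6.73 and 5.64.

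The second stretch was a nearly unbroken hemogen region of 5857 bp (28616457-28622313), the 75th widest hemogen region of 25631. BRG1 was divided into 5 regions beneath it. Region 4 (28616425-28618571) had folds of 4.96 and 4.35, and region 6 (28619150-28620433) had 4.56 and 4.96. In region 7 (28620609-28621639) the libraries differed, at 3.14 and 6.29. Region 8 (28621649-28622147), at its right edge, was the strongest BRG1 region of the Gfi1b window with a strength of 90.9 and folds of 5.43 and 5.59. It was also a region without a replicated H3K27ac region, although the H3K27ac group list had a peak there with a fold of 3.12. Region 5 (28618722-28619130), at 4.30 and 4.72, likewise lacked H3K27ac in both libraries. Region 9, the isolated one, carried the highest BRG1 fold at Gfi1b, 6.40 in library 1, against 4.22 in library 2. Hemogen reached 4.65 and 4.43 there, and its summit lay 26 bp from that of BRG1 in library 1 and 326 bp in library 2.

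The KO BRG1 lists held 3 and 4 peaks at Gfi1b. All of them lay inside WT BRG1 regions. They marked 2 of the 9 regions in library 1 (18.4% of all WT BRG1 regions) and 2 in library 2 (28.9% overall), and no region in both (12.1% overall). In library 1 they fell in regions 1 and 5, with folds of 4.91 and 4.32. In library 2 they fell in regions 3 and 4, with folds of 4.0 and 5.19. The KO group list called 6 regions (53.6% overall) and added regions 7 and 8, at folds of 3.39 and 2.44. In all, 6 of 9 regions were called in at least 1 KO list, beside 55.3% overall. Regions 2, 6 and 9 had no KO peak in any list, so the isolated stretch had none.

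Zfpm1 held the largest number of BRG1 peaks of the 3 loci. WT BRG1 gave 42 and 27 peaks over its 70 kb, covering 42.6% and 31.2% of the window. Cut into 37570 fixed tiles of 70 kb, the genome had no tile with as many peaks as the window in WT library 1, where the highest tile held 37, and 1 tile in library 2, with 27. The KO libraries gave 17 and 14 peaks, above the highest tiles of 12 and 10. This is a description, since the window was placed around a locus already chosen. Hemogen gave 35 and 29 peaks, which 2 and 6 tiles matched or exceeded, and H3K27ac gave 61 and 51, which 10 and 13 tiles did. As a share of its list, Zfpm1 held 0.160% and 0.128% of WT BRG1 peaks and 0.530% and 0.250% of KO BRG1 peaks.

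**Figure D2:**
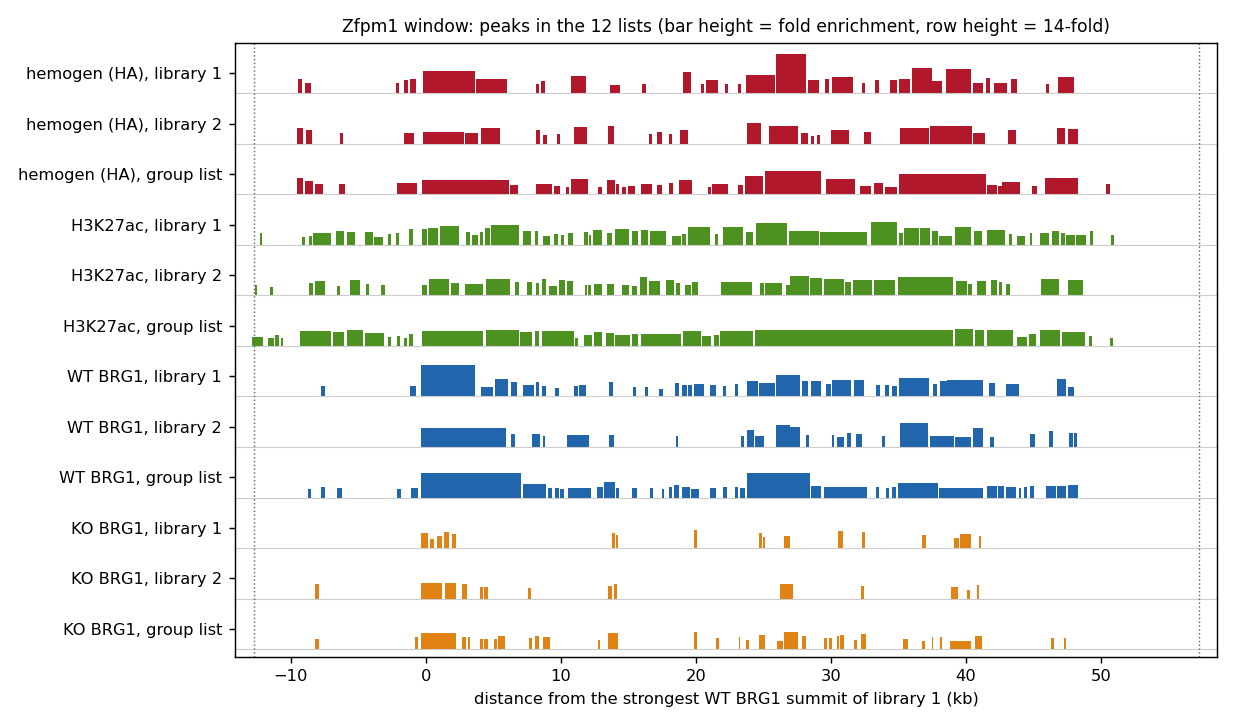
Peaks of the 12 lists across the Zfpm1 window, 1 row per list, against distance in kb from the strongest WT BRG1 summit of library 1; bar height is the authors' fold and dotted lines mark the window's edges. H3K27ac covers 62.5% and 53.1% of the window, and of the 17 and 14 KO BRG1 peaks, 15 and 13 lie in WT BRG1 regions.

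H3K27ac was broad at Zfpm1. One acetylated region ran from 122307184 to 122317652, a length of 10469 bp, which made it the widest of all 25305 replicated H3K27ac regions. Every one of the 16 WT BRG1 regions overlapped H3K27ac, beside 63.9% of all WT BRG1 regions. Hemogen overlapped 13 of them, or 81.3%, below the 96.6% of all WT BRG1 regions. Region 1 (122282393-122288853) was a single BRG1 block of 6461 bp, the 8th widest of 13213. Its folds were 9.45 and 5.77, and the former was the 18th strongest peak of its list by p-value. Hemogen over that block reached 6.64 and 4.60.

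Region 9 (122308689-122310500) had hemogen folds of 11.9 in library 1, the 7th strongest hemogen peak of that list, and 5.27 in library 2. In library 2 a hemogen peak at 122306543-122307587, over region 8, was higher, at 6.38. BRG1 folds in region 9 were 6.35 and 6.60, and the region had the highest BRG1 strength of all 29, 99.6, or rank 29 of 13213. By p-value the strongest BRG1 peak of the locus was in region 1 in library 1 and in region 9 in library 2. The summits of the 2 factors lay 121 bp apart in library 1 and 87 bp in library 2. Regions 13 and 14 (122317776-122319999 and 122320126-122324034) formed a further block. Their BRG1 folds were 5.43 and 7.31 in region 13 and 5.01 and 5.70 in region 14. Regions 2, 7 and 15, at 122289040-122289517, 122301200-122301548 and 122324488-122324918, had no replicated hemogen region, with BRG1 folds between 3.02 and 4.45. The hemogen group list did have a peak over each of these 3. The reverse was seen in region 5 (122293235-122294885), where hemogen reached 5.04 and 5.05 over low BRG1 folds of 3.32 and 3.48. Region 16 (122330346-122330757), at the right end of the locus, had BRG1 folds of 2.77 and 4.30.

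In the KO, 11 of the 16 Zfpm1 regions had a BRG1 peak in some list (55.3% overall), 8 in library 1 (18.4% overall), 6 in library 2 (28.9% overall) and 5 in both (12.1% overall). The 5 shared ones were regions 1, 6, 9, 12 and 14. Regions 9 and 1 had the highest WT strengths of the locus, 99.6 and 99.2, while regions 6 and 12 had 57.2 and 63.9, and region 13, at 94.9, was called in 1 KO library. Region 1 held 5 peaks in each KO library, with strongest folds of 4.57 and 4.68. Region 9 gave 3.68 and 4.55. Region 6 (122296337-122296721), a weak one in WT at 4.34 and 3.61, gave 4.58 and 4.45 in the KO. Region 12 (122314489-122315243) gave 4.89 and 3.95 in WT and 4.75 and 3.72 in the KO. In region 6 both WT folds were below both KO folds, but the KO library 2 peak had its summit at 122296895, outside the region. Its fold is therefore not that of the WT site. In regions 1 and 9 both WT folds were above both KO folds, and in region 12 the genotypes overlapped. Region 14 gave 4.29 and 3.54 in the KO, also below both WT values, but its strongest peaks lay at different sites. At 122321651-122322237 within it, folds were 5.01 and 3.34 in WT and 3.19 and 3.54 in the KO. The genotypes overlapped at that site. Regions called in 1 KO library were 8 (122306545-122308651), 11 (122312818-122314290) and 13 in library 1, with KO folds of 4.47, 5.03 and 4.10, and 3 (122289950-122291204) in library 2, with 3.17. Their WT folds were 4.69 and 5.18 in region 8, 5.05 and 4.17 in region 11, and 4.27 and 3.81 in region 3. Regions 4 (122291405-122291640) and 10 (122310596-122311173) were found in the KO group list alone, at 3.81 and 4.07, and regions 2, 5, 7, 15 and 16 in no KO list. The 3 regions without replicated hemogen were all among those in no KO list. Their WT strengths were 61.5, 37.4 and 32.5, below the median of 63.0 over all WT BRG1 regions.

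Nfe2 had the highest hemogen folds of the 3 loci. Its 20 kb window gave 10 and 11 hemogen peaks covering 58.9% and 59.7% of its length, 6 and 10 WT BRG1 peaks covering 47.6% and 37.8%, and 12 and 8 H3K27ac peaks covering 25.2% and 15.3%. The best hemogen peak ranked 6th in library 1, with a fold of 12.9, and 20th in library 2, with a fold of 10.9. Their summits lay at different sites, 103258550 and 103251835, and near the first site the library 2 peak reached 6.45. Both lie in one hemogen region of 9031 bp (103250757-103259787), whose strength ranked 3rd and whose width ranked 4th among 25631.

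**Figure D3:**
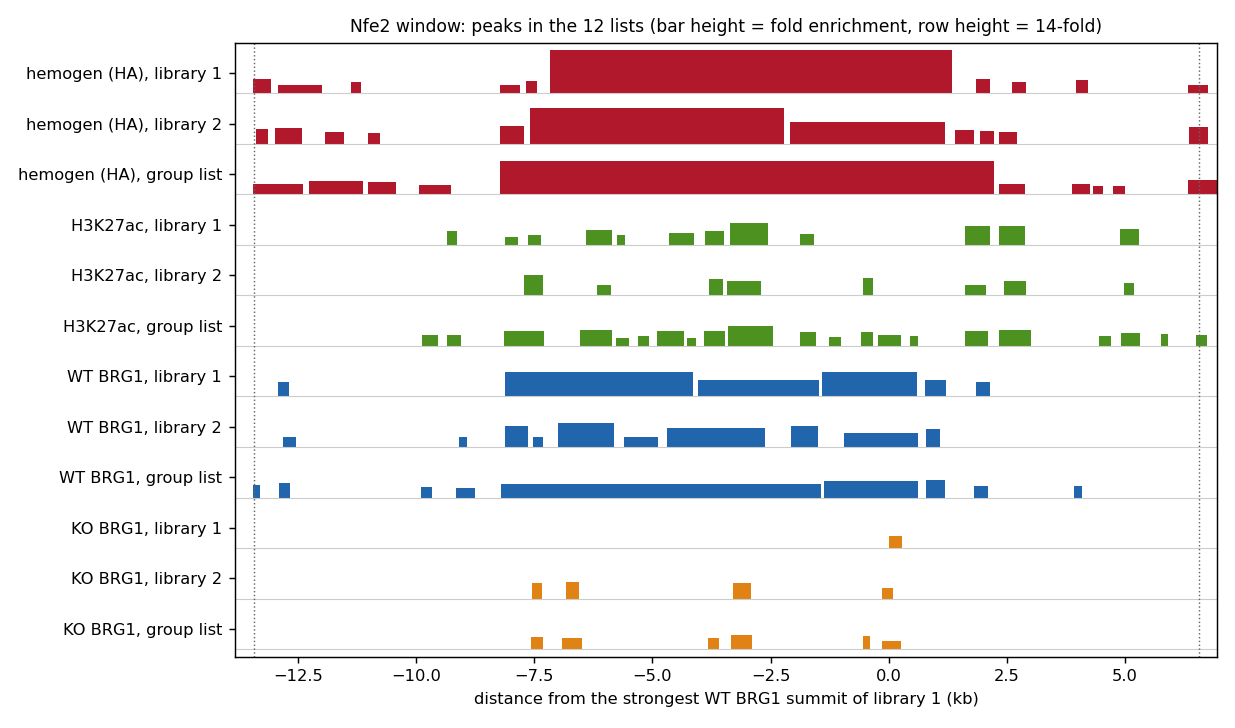
Peaks of the 12 lists across the Nfe2 window, 1 row per list, against distance in kb from the strongest WT BRG1 summit of library 1; bar height is the authors' fold and dotted lines mark the window's edges. One hemogen block of 9031 bp spans BRG1 regions 2 to 4, H3K27ac covers 25.2% and 15.3% of the window, and the KO BRG1 libraries have 1 and 4 peaks.

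Regions 2 to 4 of its 4 BRG1 regions lay under that hemogen block. Region 2 (103250313-103256965) was 6653 bp wide, the 5th widest BRG1 region in the data, with folds of 7.33 and 7.31. It alone carried replicated H3K27ac. The highest H3K27ac folds there, 6.61 in library 1 and 6.14 in library 2, lay at different sites. The other library gave 4.28 at the first site and 2.88 at the second. Region 3 (103257031-103259054) reached BRG1 folds of 7.44 and 4.32, and H3K27ac was called there in library 2, at 5.34, and in the group list with 4 peaks of up to 4.20, but not in library 1. Region 4 (103259215-103259648), with BRG1 folds of 4.84 and 5.38, and region 1 (103245525-103245890), with 4.23 and 2.97, had no H3K27ac peak in either library or in the group list.

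KO BRG1 gave 1 and 4 peaks at Nfe2, all in regions 2 and 3. Region 3 was called in both KO libraries, with folds of 3.63 and 3.13, below both WT values. Region 2 was called in library 2 alone, with 3 peaks of folds 4.81, 5.14 and 4.73. Regions 1 and 4 were called in no KO list.

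Across the 3 loci, BRG1 peaks per library numbered 63 and 53 in WT and 21 and 22 in the KO. Means were 58.0 ± 7.07 (SD, n = 2) and 21.5 ± 0.707 (SD, n = 2), a WT to KO ratio of 2.70, and the groups did not overlap. Over the full lists the same ratio was 5.39, so the ratio at the loci was below that of the lists as a whole; this difference was not tested. An exact two-sided permutation test gave p = 0.333, which is the smallest that 2 against 2 libraries allow. By locus the means were 15.5 ± 0.707 against 3.5 ± 0.707 at Gfi1b, 34.5 ± 10.6 against 15.5 ± 2.12 at Zfpm1 and 8.0 ± 2.83 against 2.5 ± 2.12 at Nfe2 (SD, n = 2 each), or ratios of 4.43, 2.23 and 3.20. At each locus both WT libraries had more peaks than both KO libraries, and the exact test gave p = 0.333 each time. Whether the ratio differed between loci was not tested. The covered length moved further than the number. At Gfi1b it was 12183 and 9691 bp in WT and 880 and 1069 bp in the KO, and at Zfpm1 29855 and 21859 bp against 5480 and 6505 bp. At Nfe2 it was 9516 and 7558 bp against 261 and 1098 bp. The covered length over the full lists was not computed, so the shorter length in the KO is not shown to be particular to these loci.

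When each BRG1 library list was trimmed to its 3205 strongest peaks, the direction over the 3 loci turned, with 11 and 14 peaks in WT and 21 and 11 in the KO. Gfi1b then gave 4 and 3 against 3 and 2. Nfe2 gave 3 and 5 against 1 and 3. Zfpm1 gave 4 and 6 against 17 and 6, where KO library 1, whose list was not shortened, held the 17. Without that library, the KO value over the 3 loci was 11 beside 11 and 14 in WT. The difference in peak number over the 3 loci at full list length was therefore not found at equal list length. Peak number also depends on how a block is divided into peaks. In the full lists region 1 of Zfpm1 held 3 and 1 peaks in WT and 5 and 5 in the KO. Region 2 of Nfe2 held 2 and 6 in WT and 0 and 3 in the KO. Covered length was not computed for the trimmed lists.

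**Figure D4:**
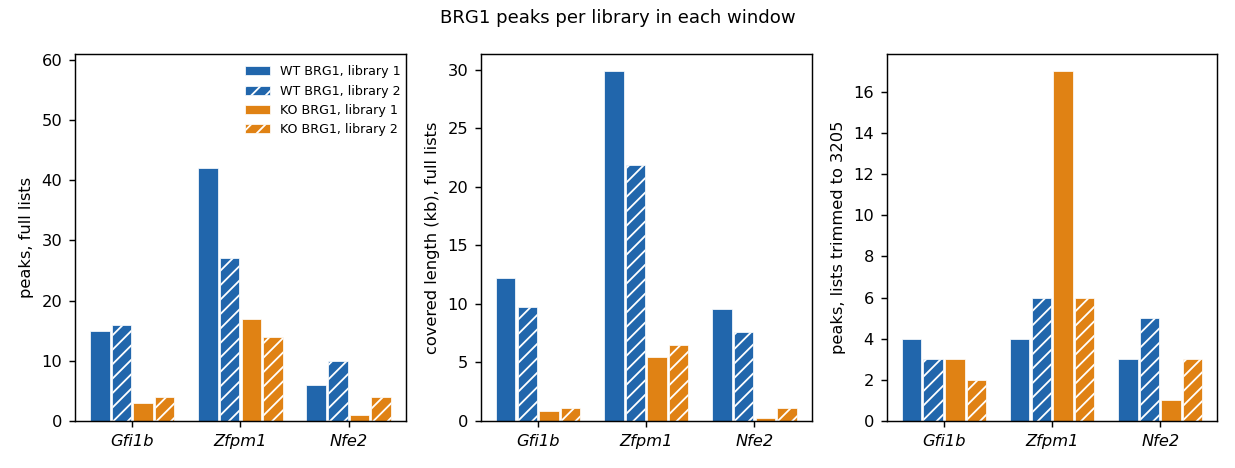
BRG1 peaks per library at each locus in the full lists (left), the length they cover in kb (middle) and peaks after trimming each list to its 3205 strongest (right), 1 bar per library. Both WT bars exceed both KO bars at each locus on the left and in the middle, and at Zfpm1 on the right KO library 1 has 17 peaks against 4 and 6 in WT.

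A further comparison scored the peaks of each WT library against a KO list and against an equally long list, the strongest peaks of the other WT library. Of the 63 peaks of WT library 1, 12 overlapped KO library 1 and 13 overlapped the equally short list of WT library 2. Against KO library 2 the numbers were 13 and 14. Of the 53 peaks of WT library 2, 13 overlapped KO library 1 and 20 the equally short list of WT library 1, and against KO library 2 they were 15 and 29. KO overlap was thus close to that of a trimmed WT list for the peaks of WT library 1 and lower for those of WT library 2, so the answer depended on the WT library scored. At Zfpm1 the KO count was the higher one for KO library 1, at 9 against 7 and 10 against 7. At Nfe2, 1 of the 10 peaks of WT library 2 overlapped KO library 1 and 7 overlapped the trimmed WT library 1. Several peaks of 1 block were scored separately, and 1 wide peak can overlap many of them. The same shares over all WT peaks were not computed, so these counts are not shown to be particular to the loci.

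Region by region, 19 of the 29 WT BRG1 regions were called in at least 1 KO list, against the background of 55.3%. Among all regions in the same strength deciles the share was 61.5%, so the 65.5% at these loci was near its background. KO library 1 called 11 of 29, beside 18.4% of all regions and 23.1% in the same deciles. KO library 2 called 10, beside 28.9% and 35.0%. Both libraries called 6, beside 12.1% and 16.3%, and the KO group list called 19, beside 53.6% and 60.0%. At Zfpm1, KO library 1 called 50.0% of the 16 regions, beside 21.7% of all regions in the same strength deciles. KO library 2 called 37.5% of them beside 32.9%, so the gap seen in library 1 was not seen in library 2. Any list gave 68.8% beside 58.2%. These differences were not tested. The 19 called regions had a median strength of 75.2 and a median width of 1704 bp, and the 10 uncalled ones 52.1 and 456 bp. Strength went with being called in the data as a whole too: 25.9% of regions in the weakest decile were called and 91.6% in the strongest. All 19 called regions had hemogen, as did 7 of the 10 uncalled ones, and H3K27ac was present at 16 of 19 and 8 of 10. Among all WT BRG1 regions, called or not, 96.6% overlapped hemogen and 63.9% overlapped H3K27ac. Whether either mark went with being called was not tested.

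**Figure D5:**
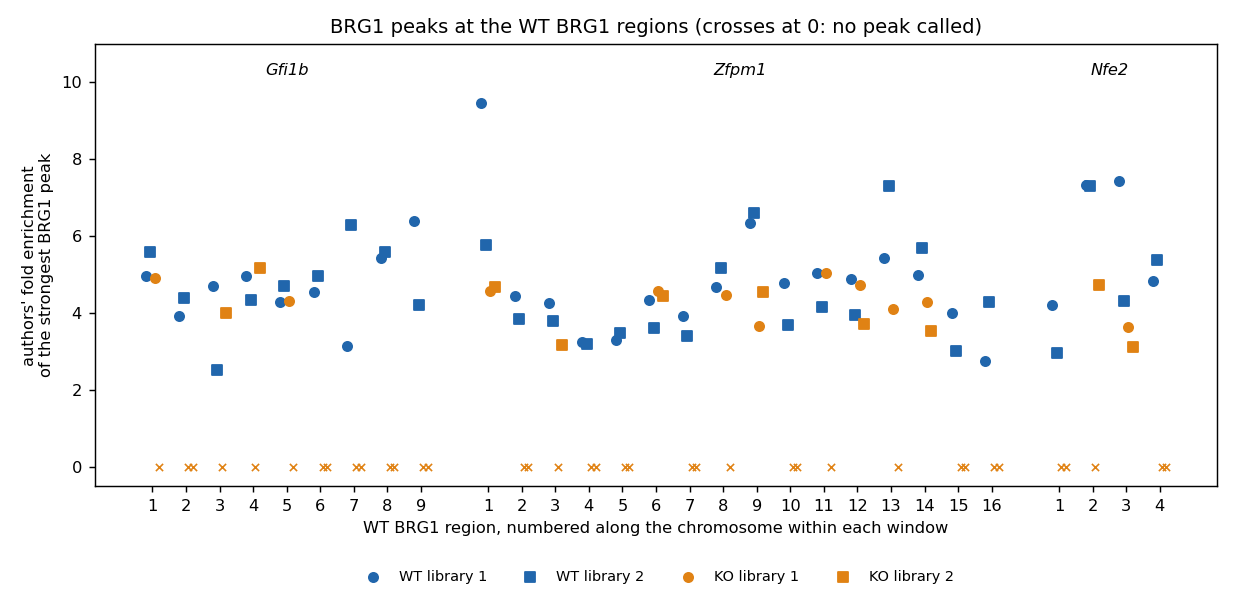
Authors' fold enrichment of the strongest BRG1 peak in each WT BRG1 region, numbered along the chromosome within each window, with blue for WT, orange for KO, and crosses at 0 for a KO library with no peak. Regions 1, 6, 9, 12 and 14 of Zfpm1 and region 3 of Nfe2 have a peak in all 4 libraries, and KO folds lie between 3.13 and 5.19.

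Of the 21 KO peaks in library 1, 19 lay in WT BRG1 regions (91.7% overall), and the other 2, at Zfpm1, overlapped a WT BRG1 peak outside those regions. Of the 22 in library 2, 21 lay in WT regions (84.1% overall). The other one, at 122274552-122274886 in the left part of the Zfpm1 window, had a fold of 4.38 and met no WT BRG1 peak of any list. The KO group list had 45 of its 55 peaks in WT regions (72.5% overall). Of the other 10, 9 were at Zfpm1, and 2 met no WT BRG1 peak. Merged KO regions called in both libraries numbered 9, of which 8 were at Zfpm1 and 1 at Nfe2. All 9 overlapped hemogen and 8 overlapped H3K27ac, beside 98.5% and 92.4% of all 1543 KO regions.

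Summit heights give the raw size of these peaks. For the 6 regions called in all 4 libraries they were read back as fragments. Region 1 of Zfpm1 had 66 and 62 fragments at its summit in WT and 47 and 54 in the KO. Region 9 had 71 and 73 in WT and 44 and 39 in the KO. In region 3 of Nfe2 there were 58 and 52 in WT and 37 and 31 in the KO. Both KO libraries were lower in these 3. Region 6 of Zfpm1 had 36 and 28 in WT and 26 and 23 in the KO, again lower, though the 23 belong to a summit outside the region. Region 12 had 31 and 28 in WT and 32 and 23 in the KO. Region 14 had 46 and 40 in WT and 44 and 51 in the KO, with summits at different sites. The genotypes overlapped in the last 2, and the KO precipitates were estimated to be shallower. Scaled to the precipitate depth of WT library 1, these 6 regions had median heights of 52 and 44.2 in WT and 99.8 and 102 in the KO. The same held over all 1594 such regions, at 42 and 39.4 against 78.9 and 87.8, so these loci followed the lists as a whole. All of these regions were selected by being called in the shallower KO lists.

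Relative to the lowest background of its list, the local background under the peaks was also higher in the KO lists. The median of this relative value over the peaks read back was 1.84 and 2.09 in WT and 5.34 and 4.75 in the KO. At the 3 loci it was 2.3 and 2.38 in WT and 7.12 and 5.80 in the KO. The lowest backgrounds themselves were 2.36 and 1.91 in the WT libraries and 0.562 and 0.631 in the KO libraries. Fold divides by the local background itself and not by the relative value, so these medians do not compare the backgrounds within fold. The part that depth and background had in the KO peak numbers and folds was not tested.

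In WT livers, hemogen regions overlapped 26 of the 29 WT BRG1 regions, or 89.7%, beside 96.6% of all WT BRG1 regions. H3K27ac regions overlapped 24, beside 63.9% of all. In the group lists these became 29 with hemogen (99.7% overall) and 27 with H3K27ac (89.9% overall). Seen from hemogen, 19 of 33 regions overlapped BRG1 (41.6% overall) and 26 overlapped H3K27ac (39.8% overall). Of the 55 H3K27ac regions, 37 overlapped hemogen (49% overall), 32 overlapped BRG1 (37.2% overall) and 14 overlapped neither. Shares from hemogen and H3K27ac were above their backgrounds, and the share of BRG1 regions with replicated hemogen was below its background. The windows were drawn around erythroid genes, so these shares describe the loci and were not tested.

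Summits were compared between the strongest hemogen and BRG1 peaks overlapping each WT BRG1 region. They were a median of 150 bp apart in library 1 (n = 27) and 284 bp in library 2 (n = 26), with 10 and 6 within 100 bp. A wide hemogen peak can overlap several regions and have its summit outside some of them. In region 2 of Nfe2 the distance in library 1 was 6630 bp for that reason. Over all WT BRG1 regions the medians were 225 and 202 bp, with 30.5% and 32.9% within 100 bp. The loci were thus below the overall median in library 1 and above it in library 2. For scale, the BRG1 summits of the 2 libraries were a median of 157 bp apart at these loci and 115 bp over all regions, and those of hemogen 110 bp and 157 bp.

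Each locus also had hemogen regions and H3K27ac regions without a replicated BRG1 region. Hemogen without a replicated BRG1 region was strongest at 122301606-122302383 in Zfpm1, with folds of 6.26 and 4.28, where BRG1 was called in library 1 alone at 3.58. At Zfpm1 the next were 122273228-122273629, at 4.26 and 4.61 with no BRG1 peak in either library, and 122325892-122326525, at 4.17 and 4.06. At Gfi1b they were 28596180-28596865, at 5.18 and 3.64, 28606769-28607435, at 4.49 and 3.62, and 28640950-28641199, at 2.62 and 3.70. At Nfe2 they were 103260283-103260669, at 4.25 and 3.83, 103244991-103245379, at 4.23 and 4.45, and 103264773-103265207, at 2.37 and 5.03. Replicated H3K27ac overlapped 5 of these 9 sites, the first and last named at Zfpm1, the last 2 at Gfi1b and the first at Nfe2. BRG1 was called in 1 WT library at 5 of the 9. None of them had a fold above 6.26, whereas the strongest shared sites reached 12.9.

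H3K27ac without a replicated BRG1 region was strongest at 122301725-122303784 in Zfpm1, with folds of 5.27 and 4.06. It overlaps the hemogen site just named. The next at Zfpm1 were 122298657-122299251, at 4.46 and 5.43, and 122328291-122329673, at 4.23 and 4.83. The last met BRG1 peaks of both libraries, at 5.16 and 4.85, that did not overlap each other. At Gfi1b they were 28640526-28640981, at 4.88 and 4.36, which borders region 9, then 28606090-28606907, at 4.07 and 3.35, and 28611038-28611738, at 3.76 and 3.48. At Nfe2 they were 103260773-103261343, at 5.65 and 4.36, 103263346-103263732, at 4.74 and 3.76, and 103260051-103260578, at 5.66 and 3.22. The Nfe2 sites all lie to the right of the hemogen block, on the side where BRG1 regions 3 and 4 lacked replicated acetylation.

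Agreement between libraries at the loci was partial. Of the WT BRG1 peaks, 38 of 63 in library 1 and 45 of 53 in library 2 overlapped a peak of the other library. For hemogen it was 46 of 65 and 47 of 56, and for H3K27ac 74 of 103 and 73 of 82. For KO BRG1 it was 13 of 21 and 10 of 22. At Gfi1b none of the 3 and 4 KO peaks overlapped between libraries, so no KO library peak there was replicated. Over the whole lists, 3205 and 5592 KO peaks gave 1543 regions with a peak of both libraries. The share of peaks that overlap was not computed there, so partial agreement is not shown to be particular to these loci.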

How the data were processed

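ChIP-seq peak lists of fetal liver at embryonic day 14.5 were analysed: 8 library lists and 4 group lists. The 4 input libraries and the 12 libraries of human K562 cells were not analysed here. Peaks carry names of MACS2, whose version is 2.2.7.1 per the submitters' processing notes. These also list Picard 2.21.4, Bowtie2 2.3.5 and SAMtools 1.9. No genome build and no control of the calls is named there. Peak names inside the hemogen lists carry other library numbers than the deposited files, and the recorded sample of each file was followed. The windows are in mm10, and contig names and positions in the lists fit that build. Each deposited peak has a fold enrichment, which is a ratio over local background, and its −log10 values of p and of q, all by the authors. The deposited summit offset is another value, a distance in bp. Sample titles gave the groups and the replicate numbers, which carry no stated pairing.

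Peaks overlapping a window by 1 bp were members, and an overlap of 1 bp counted as shared. Regions, strength and calls are as defined in the report; backgrounds are the same counts over all regions on the 19 autosomes and chromosome X. Every WT BRG1 region and every KO library peak was to be named, with the 3 strongest hemogen and H3K27ac regions without BRG1 per window. KO library peaks inside WT regions are given by region. Peak numbers were compared with an exact two-sided permutation test. Summit heights, backgrounds and depths were read back from fold and p-value by taking p as an upper Poisson tail and fold as height plus 1 over background plus 1. Of 743 members, 731 gave 1 reading and 12 more than 1, and heights came out whole within 0.01. This formula is an assumption about the caller. Dividing the lowest background by the shortest peak width to get a depth is an assumption too. For the depth of the precipitate, the scaling by the caller was divided out. Fragment counts carry counting error besides differences between libraries, and no error was computed for them. Tiles were laid end to end from the start of each chromosome. Overlap and merging code was tested on simulated intervals with 0 differences. Members, lists and windows were chosen with earlier results of these data known. The read-back, the tiles and the comparison with the trimmed WT list were added after seeing the data. A mouse genome and annotation were not used here, so the pathway genes, marker genes and motifs of the plan were left out. Alternatives were a −log10 q of 5, an overlap of 50% of the shorter interval, group lists, trimmed lists, each library left out and a replicate block. Analyses ran in Python 3.11.15 with pandas 2.3.3, NumPy 2.4.6, Matplotlib 3.10.9 and SciPy 1.17.1.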

Additional observations from a re-analysis of the deposited data

How the results depend on the processing

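BRG1 peaks per library over the 3 loci kept the direction of the difference at a −log10 q of 5 or more (26.5, from means of 33.0 and 6.5), with summits in the window (36.5) and without any 1 library (31.5 to 41.5). Lists trimmed to 3205 peaks reversed it to -3.5 over the 3 loci (p = 1.0, exact permutation test) and to -6.5 at Zfpm1 (p = 0.667, exact permutation test). With the replicate number as a block, the 2 paired differences averaged 36.5 and the exact sign-flip p was 0.5, the smallest that 2 pairs allow. The libraries share only a number.

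WT BRG1 regions called in the KO numbered 19 of 29. They were 8 of 16 at a −log10 q of 5 (38.6% of all regions at that setting), 7 of 8 with trimmed lists (69.6%) and 23 of 66 in group lists (24.6%). They were 6 of 29 when a call in both KO libraries was required (12.1% of all regions). Without 1 library they ran from 10 of 29 to 31 of 63. Matched by replicate number as a block, 27 of 116 WT library peaks overlapped the KO library of the same number (14.6% overall). Regions with hemogen (26) were 15 of 16 at a −log10 q of 5, 64 of 66 in group lists and 26 of 29 to 45 of 63 without 1 library. Those with H3K27ac (24) were 9 of 16, 62 of 66 and 24 of 29 to 54 of 63. Hemogen regions with BRG1 (19 of 33) were 9 of 17, 45 of 61 and 20 of 33 to 33 of 65. Hemogen regions with H3K27ac (26) were 11 of 17, 52 of 61 and 24 of 33 to 47 of 65. Under these alternatives the number of regions changed as well, since a single or group list has more intervals than 2 libraries share and a stricter threshold has fewer. An overlap of 50% of the shorter interval left the region counts between 17 and 24. For the hemogen, BRG1 and H3K27ac overlaps, shares over all regions at these settings were not computed, so those counts describe the loci only. The same holds for KO calls with a WT library left out.

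The KO libraries were estimated to be shallower, and the part of depth in the KO counts was not tested. A WT region without a KO peak is not shown to lack BRG1, and 2 libraries a group cannot give a p below 0.333.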
